A study of Mus musculus with 12 samples.

Results

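The chemokine receptors described here are 9 genes, Ccr1, Ccr2, Ccr6, Cx3cr1, Cxcr2, Cxcr3, Cxcr4, Cxcr5 and Ccrl2, out of 32190 gene symbols counted in mouse dendritic cells (DCs). They were taken by name as receptors of myeloid cells, leaving aside Ccr7 and Xcr1, and a row for each of the 9 was found in both count tables. RNA was counted in 12 libraries, 2 in each of 6 groups. Tumoral DCs came from late-stage (day 14) and early-stage (day 7) MC38 tumors, a mouse colon carcinoma line, grown in Zbtb46-Tdtomato mice labelled WT, whose reporter follows a transcription factor of conventional DCs. The sort is described no further than that reporter. Bone marrow-derived DCs (BMDCs), grown from marrow in culture and labelled with a time of 9 days, formed the other 4 groups: labelled Pde5 knockout with LPS, WT with LPS, labelled Pde5 knockout without stimulation, and WT without stimulation. LPS, lipopolysaccharide from bacterial walls that activates Toll-like receptor 4, was given at 200 ng/ml for 12 h. The cell or tissue in which Pde5 is lacking is not specified beyond Pde5-/- mice.

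Chemokine receptors are G protein-coupled receptors that steer leukocytes along gradients of secreted chemokines, and the set a cell carries decides which tissues it can enter or leave. Immature DCs carry receptors for inflammatory chemokines, and upon maturation they classically lose several of these while they gain receptors for lymphoid tissue chemokines. Most of them signal through inhibitory G proteins to phosphoinositide 3-kinase gamma and Rac, and arrestins then switch the receptor off. Atypical receptors bind ligand without such signalling.

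Tumoral libraries held 14.2 to 19.3 M counts and BMDC libraries 16.1 to 19.7 M, and all 9 receptors held enough counts for a test in both tables. All 7 listed markers of conventional DCs, among them Zbtb46, Flt3 and Itgax, were counted in every library, with a summed level of 7405 to 18007 CPM (counts scaled to the library total). Nothing in the labels tells whether replicate libraries are separate animals or cultures, so a p-value reflects only the spread of these libraries, possibly a technical one. Pde5a, the gene named by the knockout label, had 22 and 43 counts in LPS and 47 and 61 in unstimulated libraries labelled knockout, against 52 and 20 in LPS and 55 and 37 in unstimulated WT libraries. These counts do not separate the genotype labels, so every genotype below is given as labelled. In bulk RNA, fewer cells of a type and less RNA per cell cannot be told apart. A gene was called where the adjusted p of edgeR's quasi-likelihood test was under 0.05.

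The sequences just before the transcription starts of 4 of the receptors that changed with LPS in WT cells are shown here, because members that rose and members that fell can be compared by their letters. RefSeq promoter windows (GRCm38.p6, the assembly of mm10) were matched for 8 of the 9 receptors, in 11 windows, and Cxcr5 had no entry. The 250 bases before each start were searched on both strands for 5 motifs: NF-kB (GGGA, any 4 bases, CC), ISRE (GAAA, any 2 bases, GAAA), AP-1 (TGANTCA), PU.1 (GAGGAA) and C/EBP (TTGCNNAA). Capitals mark the motif matches, and each sequence runs 5′ to 3′ on the gene's own strand, which is minus for these 4 genes. Cxcr4 (chr1:128592300-128592549) and Ccrl2 (chr9:111057519-111057768) rose with LPS in WT cells, while Ccr1 (chr9:123968693-123968942) and Cxcr3 (chrX:101734148-101734397) fell.
Cxcr4: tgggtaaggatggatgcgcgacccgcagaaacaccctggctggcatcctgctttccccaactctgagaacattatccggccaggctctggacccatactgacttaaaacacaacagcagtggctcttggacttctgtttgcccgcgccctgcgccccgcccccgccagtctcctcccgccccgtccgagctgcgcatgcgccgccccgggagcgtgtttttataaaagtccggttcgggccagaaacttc
Ccrl2: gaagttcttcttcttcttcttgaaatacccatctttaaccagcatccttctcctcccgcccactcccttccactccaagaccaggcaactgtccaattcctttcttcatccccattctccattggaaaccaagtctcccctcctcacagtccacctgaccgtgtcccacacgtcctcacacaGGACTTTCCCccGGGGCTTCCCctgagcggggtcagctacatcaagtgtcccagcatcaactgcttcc
Ccr1: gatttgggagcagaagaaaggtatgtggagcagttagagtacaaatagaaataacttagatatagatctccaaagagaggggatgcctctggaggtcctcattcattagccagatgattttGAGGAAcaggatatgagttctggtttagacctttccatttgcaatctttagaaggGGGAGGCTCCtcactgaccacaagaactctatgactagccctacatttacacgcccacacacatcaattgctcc
Cxcr3: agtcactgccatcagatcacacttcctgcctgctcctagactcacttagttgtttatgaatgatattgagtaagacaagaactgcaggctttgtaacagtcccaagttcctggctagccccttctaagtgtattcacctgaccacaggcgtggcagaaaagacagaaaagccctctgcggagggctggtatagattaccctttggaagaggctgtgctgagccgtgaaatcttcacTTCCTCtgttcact
The Ccrl2 window printed here, 1 of 3 for this gene, held a pair of NF-kB matches on the minus strand of the motif. They ran from 68 to 59 and from 56 to 47 bases before the start. The other Ccrl2 windows (chr9:111057271-111057520 and chr9:111057245-111057494) held none of the 5 motifs. Ccr1 held 1 NF-kB match, from 74 to 65 bases before its start, and 1 PU.1 match, from 129 to 124 bases before it. Cxcr3 held a PU.1 match from 14 to 9 bases before its start, and the Cxcr4 window held none of the 5 motifs. Ccr2, which also fell with LPS, is not printed because its window (chr9:124101933-124102182) lies within the RefSeq span of the gene, and it held none of the 5 motifs either. An NF-kB match was found in 3 of the 11 windows (of Ccrl2, Ccr1 and Ccr6) and a PU.1 match in 4 of them (of Ccr1, Cxcr3, Ccr6 and Cxcr2), against 17.6% and 23.3% of 32817 RefSeq windows of the same length. No ISRE, AP-1 or C/EBP match was found for any of them, and those motifs were in 2.97%, 6.75% and 9.57% of all windows. Whether any of these matches bears on the LPS response of its gene was not tested.

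Receptor levels differed widely between genes and between both experiments. Per kilobase of exon, Ccrl2 and Cxcr4 led in late tumoral DCs with 172 ± 24.5 and 165 ± 20.5 CPM per kb (mean ± SD, n = 2 libraries). They were followed by Ccr1 at 80.5 ± 21.8, Ccr2 at 39.1 ± 3.64 and Cx3cr1 at 17.1 ± 0.613 CPM per kb in the same group. Cxcr3, Cxcr2, Cxcr5 and Ccr6 were lowest there, at 6.34, 2.43, 1.57 and 0.901 CPM per kb. In unstimulated WT BMDCs the most abundant per kb were Ccr1 (56.3 ± 1.30), Cxcr4 (54.6 ± 11.8) and Ccr2 (46.3 ± 23.6), whose spreads overlapped. Ccrl2 followed at 5.85 ± 1.56, and Cxcr5 at 1.21 ± 0.0265 and Cxcr2 at 0.589 ± 0.146 CPM per kb were lowest. The order of Ccr1 and Ccr2 depends on the exon length used, 2833 bases for Ccr1 and 6760 for Ccr2. In CPM, Ccr2 had the higher mean, 264 against 228 in late tumoral DCs and 313 against 159 in unstimulated WT BMDCs. The tumoral and the BMDC table were fitted apart, and their levels are set side by side here without a test.

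**Figure D1:**
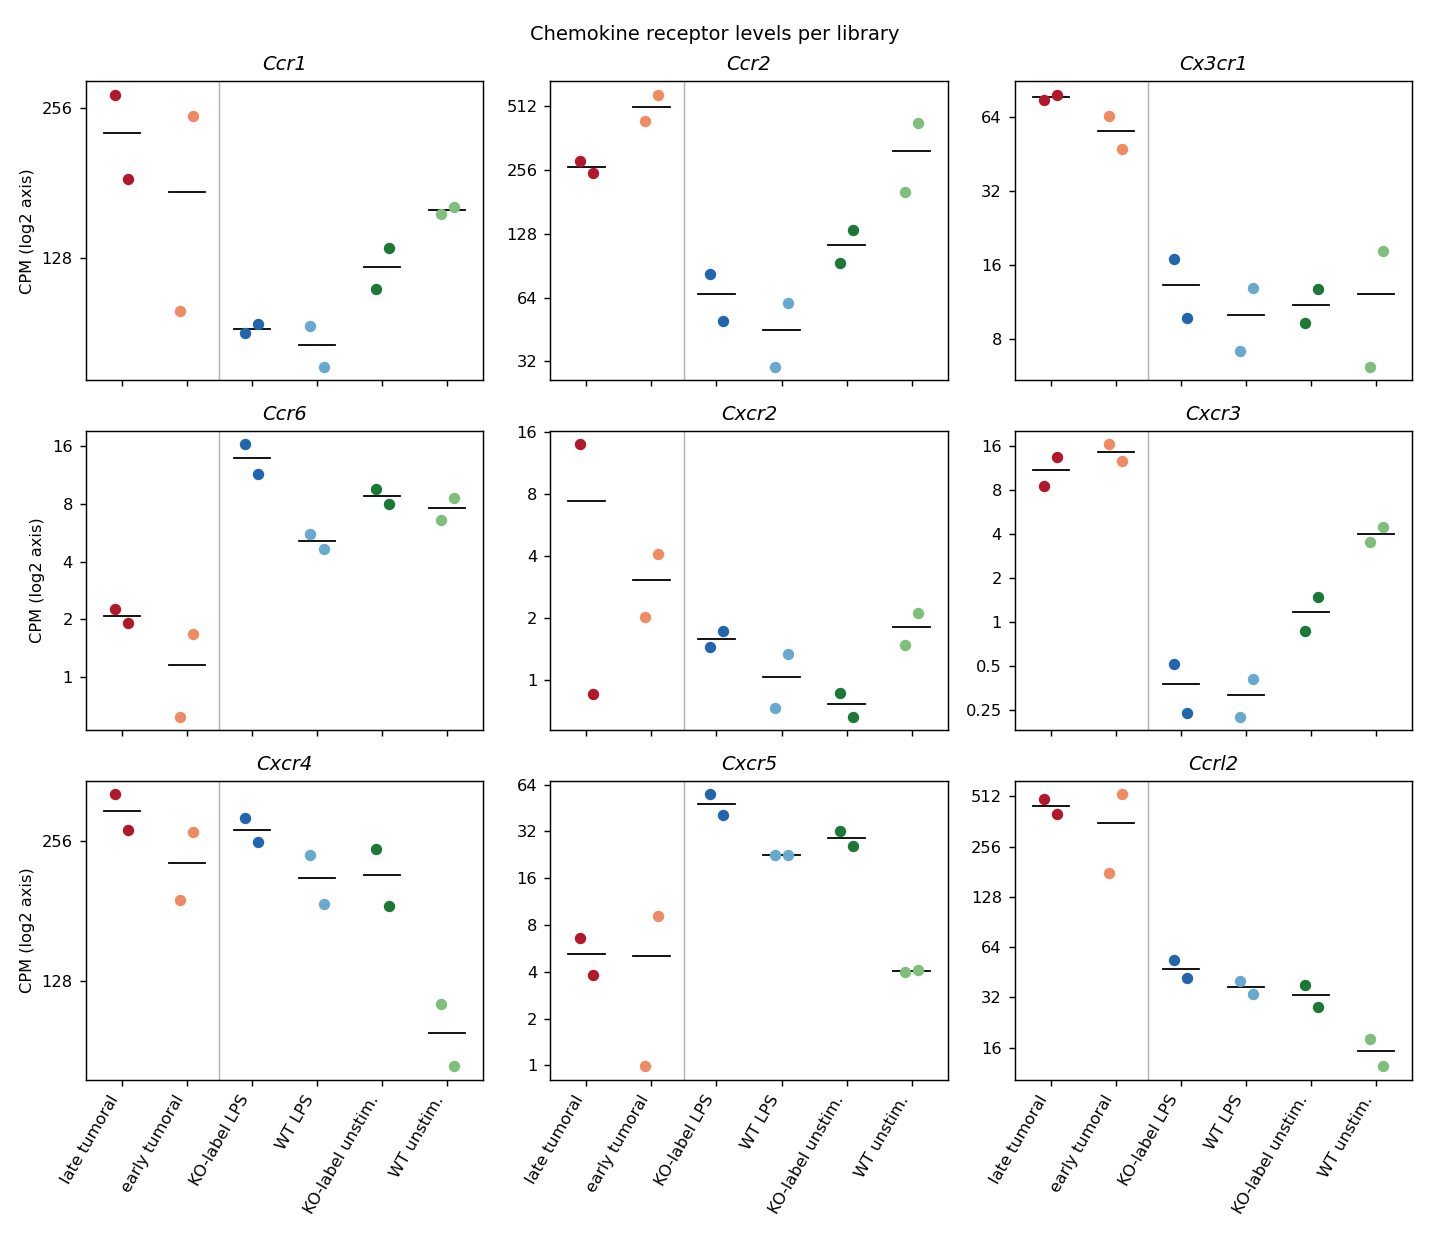
Level of each chemokine receptor in CPM (log2 axis, a scale of its own for each receptor) in every library, with the mean of 2 libraries as a bar, by group. Cxcr5 was lowest in unstimulated WT BMDCs (3.97 and 4.09 CPM) among the BMDC groups and highest in knockout-labelled BMDCs with LPS (55.6 and 40.7 CPM), whereas Ccrl2 was higher in all 4 tumoral libraries than in any BMDC library.

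In WT BMDCs, LPS moved the receptors in opposite directions: Cxcr5, Cxcr4 and Ccrl2 rose, and Cxcr3, Ccr2 and Ccr1 fell. These were 6 of the 9 receptors, 3 in each direction, against 37.6% of all 13072 genes called in this comparison. For 8 receptors the libraries of both groups did not overlap, as was so for 74.0% of all genes. Their median log2 fold change was -0.36, against -0.02 over all genes tested. Ccr6, Cx3cr1 and Cxcr2 did not pass the test. Of all genes, 2609 rose and 2301 fell, and with scaling by library size alone 1689 rose and 3728 fell, with an all-gene median of -0.23. The 9 receptors kept their signs under that scaling.

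Among the receptors for CC chemokines, Ccr1 binds Ccl3 and Ccl5 and is carried by monocytes, neutrophils and immature DCs. It was at 93.5 and 77.3 CPM with LPS, against 157 and 162 CPM in unstimulated WT cells. Both LPS libraries lay below both unstimulated ones, and the fold change was -0.70 on the log2 scale (SE 0.118, edgeR adjusted p = 0.0028). Ccr2, the receptor for Ccl2 that lets monocytes leave the bone marrow, was at 30.2 and 60.3 CPM with LPS, against 201 and 426 CPM without. The groups did not overlap, though the unstimulated replicates were far apart, and its log2 fold change was -2.58 (SE 0.48, edgeR adjusted p = 0.00676). The 10 monocyte and macrophage markers summed to 2181.6 and 1709 CPM with LPS and to 2189.9 and 1922 CPM without, and 5 of them, among them Fcgr1 and C1qa, rose while 2 fell (median log2 fold change 0.64). The sums overlapped, and the part of monocytes and macrophages in the Ccr2 values was not tested. Of the 10, Ly6c2 was at 19.3 and 32.9 CPM with LPS and at 14.0 and 53.1 CPM without, and its higher unstimulated library was also the higher one for Ccr2. Ccr1 and Ccr2 lie on chromosome 9 with close paralogs such as Ccr3, and reads that paralogs share could be split or lost in the counting.

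Ccr6, the receptor for Ccl20 that draws immature DCs and lymphocytes to mucosal surfaces, was at 5.60 and 4.67 CPM with LPS and at 6.63 and 8.56 CPM without stimulation. LPS libraries were the lower ones, but the log2 fold change of -0.36 (95% interval -0.91 to 0.19) did not pass (edgeR adjusted p = 0.275). Cx3cr1, the fractalkine receptor of monocytes and tissue macrophages, was at 7.12 and 12.9 CPM with LPS and at 6.16 and 18.2 CPM without. The groups overlapped, and the interval of the log2 fold change, -1.35 to 1.19, includes changes of 2-fold in either direction.

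Among the receptors for CXC chemokines, Cxcr5 is the receptor for Cxcl13 and guides B cells and follicular helper T cells into follicles. It had 22.5 and 22.4 CPM in WT BMDCs with LPS, against 3.97 and 4.09 CPM in unstimulated WT BMDCs. The replicates of each group were nearly equal, and the receptor rose 6.41-fold (log2 2.68, SE 0.197, edgeR adjusted p = 0.000282), the 13th smallest p of 13072 genes. The 6 listed B cell markers, among them Cd79a and Ms4a1, summed to 7.06 and 4.79 CPM with LPS and to 7.11 and 9.30 CPM without. Their part in the Cxcr5 values was not tested. Exons of Cxcr5 (chr9:44511787-44526444) share 110 of 3332 bases with Bcl9l on the other strand. Bcl9l was at 53.2 and 60.6 CPM with LPS and at 27.0 and 42.5 CPM without, and since the strand setting of the counting is not given, a small share of Bcl9l reads in the Cxcr5 count cannot be told apart.

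Cxcr4, which binds Cxcl12 and holds leukocytes in the bone marrow, was at 239.6 and 188 CPM with LPS, against 114 and 83.5 CPM without stimulation. All LPS values were above the unstimulated ones, a 2.49-fold rise (log2 1.31, SE 0.212, edgeR adjusted p = 0.00279). Cxcr3, which binds the interferon-induced chemokines Cxcl9, Cxcl10 and Cxcl11 and is best known from activated T and NK cells, was at 0.224 and 0.404 CPM with LPS, against 3.55 and 4.47 CPM without. It fell to a level of 4 and 7 counts per library, against 60 and 72 counts in unstimulated WT cells (log2 -3.45, SE 0.507, edgeR adjusted p = 0.00148). This was the receptor with the greatest fall among the 9 in this comparison. The 9 T cell markers with a row summed to 16.6 and 19.6 CPM with LPS and to 38.0 and 49.2 CPM without. The sum was thus lower with LPS, but not every marker was. Of the 7 tested, 1 rose (Cd8a) and 1 fell (Cd28), with a median log2 fold change of -0.37. Of the 7 listed markers of type 1 conventional DCs, 5 fell and 2 rose (median log2 fold change -2.02), where 17.6% of all genes were called lower. Their sum was 1806 and 2195 CPM with LPS and 1715 and 1780 CPM without. The part of T cells or of these DCs in the Cxcr3 values was not tested. Cxcr2, the receptor of neutrophils for Cxcl1 and Cxcl2, was at 0.729 and 1.33 CPM with LPS and at 1.48 and 2.11 CPM without, and its log2 fold change of -0.60 did not pass (edgeR adjusted p = 0.31). The 10 neutrophil markers were lower with LPS as well, at 57.8 and 65.2 CPM summed, against 117 and 188 CPM without, with 5 of the 8 tested called lower, and Ly6g was at 0 in all but 1 of these 4 libraries. Their part in the Cxcr2 and Ccr1 values was not tested.

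Ccrl2, an atypical receptor that binds chemerin and offers it to neighbouring cells without signalling itself, was at 40.2 and 33.5 CPM with LPS, against 18.1 and 12.3 CPM without stimulation. It rose 2.78-fold (log2 1.47, SE 0.243, edgeR adjusted p = 0.00304), close to the rise of Cxcr4. The 10 listed genes of mature DCs, such as Ccr7, Fscn1 and Ccl22, summed to 20562 and 23379 CPM with LPS and to 13329 and 11364 CPM without, the same order of groups as for Ccrl2, Cxcr4 and Cxcr5. The 6 calls were each kept when any 1 library of either group was left out.

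In knockout-labelled BMDCs, by contrast, 0 of the 9 receptors passed the test for LPS against no stimulation with edgeR, where 0% of all 13072 genes were called. At an unadjusted p under 0.05 there were 6 receptors and 2800 genes, DESeq2 called 1 receptor (Cxcr5) and 793 genes, and limma-voom called 0 of both. For 8 receptors the groups did not overlap, against 56.2% of all genes. The median log2 fold change of the receptors was 0.40, against -0.02 over all genes. Cxcr5 was at 55.6 and 40.7 CPM in knockout-labelled cells with LPS, against 32.1 and 25.9 CPM in those without, and its log2 fold change was 0.80 (95% interval 0.42 to 1.19, edgeR adjusted p = 0.075). With knockout-labelled unstimulated replicate 1 left out, it was 1.00 with an adjusted p of 0.0327. Ccr6, at 16.4 and 11.4 CPM against 9.55 and 8.03 CPM, had a log2 fold change of 0.74 (edgeR adjusted p = 0.127). Cxcr3, at 0.518 and 0.238 CPM against 0.863 and 1.47 CPM, had one of -1.53 (edgeR adjusted p = 0.155).

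For the other 6 receptors the adjusted p was 0.165 or more. Cxcr4 was at 287 and 255 CPM with LPS and at 247 and 186 CPM without, and Ccrl2 at 53.7 and 41.6 CPM with LPS and at 38.1 and 28.1 CPM without. The LPS libraries were the higher ones for both genes, with log2 fold changes of 0.40 and 0.60 (edgeR adjusted p = 0.303 and 0.195). Ccr1 was at 90.5 and 94.1 CPM with LPS and at 111 and 134 CPM without, and Ccr2 at 83.05 and 49.7 CPM with LPS and at 92.7 and 133 CPM without. Both were lower with LPS, with log2 fold changes of -0.33 and -0.69 (edgeR adjusted p = 0.165 and 0.425). Cxcr2, at 1.44 and 1.73 CPM against 0.863 and 0.660 CPM, had a log2 fold change of 1.12 (edgeR adjusted p = 0.197), on counts of 13 to 29 per library. Cx3cr1, at 16.9 and 9.71 CPM with LPS and at 9.28 and 12.8 CPM without, overlapped between the groups.

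Whether the LPS response itself differed between the genotype labels was tested by the interaction, the log2 LPS effect in knockout-labelled minus that in WT BMDCs. Cxcr5 was the 1 receptor of 9 that passed, against 4.48% of all genes called (0.566% higher and 3.91% lower), with an interaction of -1.88 (SE 0.258, 95% interval -2.46 to -1.29, edgeR adjusted p = 0.00978). It stayed past the threshold whichever of the 8 libraries was left out, between -2.11 and -1.68. Cxcr4 and Ccrl2 had interactions of -0.91 and -0.88 that did not pass (edgeR adjusted p = 0.127 and 0.182). DESeq2 called Cxcr4 too, at an adjusted p of 0.0307. For the receptors that fell in WT cells the interaction was positive, 1.92 for Cxcr3, 1.90 for Ccr2 and 0.37 for Ccr1, and none of the 3 passed (edgeR adjusted p = 0.196, 0.156 and 0.249). Over the 9 receptors the median interaction was 0.42, against -0.01 over all genes.

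**Figure D2:**
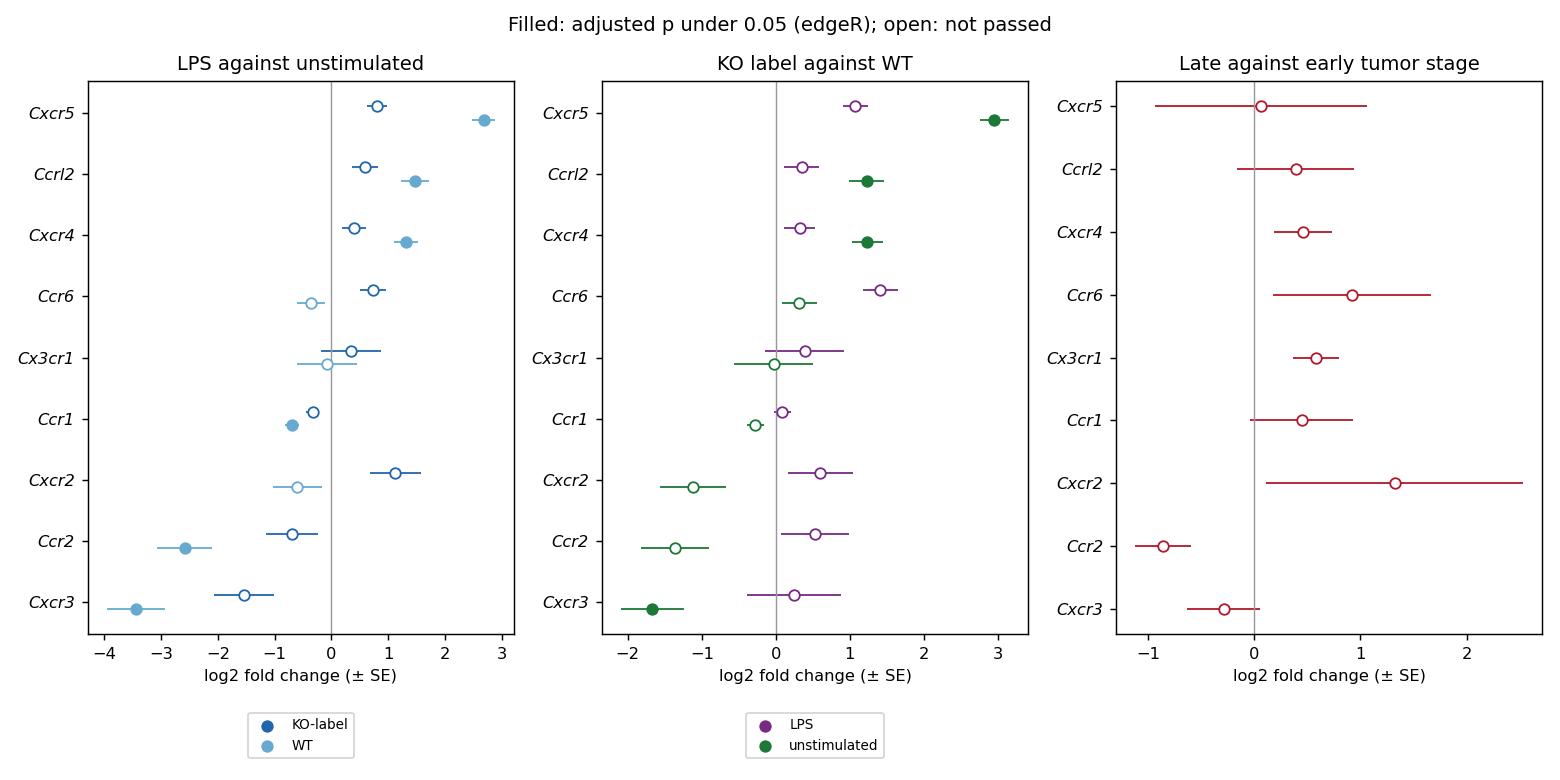
Log2 fold changes with standard errors of the 9 receptors for LPS against no stimulation, for the knockout label against WT, and for late against early tumoral DCs, filled where the edgeR adjusted p was under 0.05. Filled points were 6 for LPS in WT BMDCs and 4 for the knockout label without stimulation, and there were none in the other comparisons shown.

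Without stimulation, Cxcr5, Cxcr4 and Ccrl2 were higher and Cxcr3 lower in knockout-labelled than in WT BMDCs, while Ccr1 and Ccr2 did not pass. These were 4 of 9 receptors, against 18.0% of all genes called in this comparison, 12.0% higher and 5.98% lower. In genes these were 1575 higher and 782 lower, or 1282 and 1301 with scaling by library size alone, where the all-gene median was -0.12. For 7 receptors the groups did not overlap, against 66.1% of all genes. This comparison and that of LPS in WT cells share the unstimulated WT libraries, so their values are given side by side and likeness between them is not independent. The median log2 fold change of the receptors was -0.03, against -0.01 over all genes.

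Cxcr5 had 32.1 and 25.9 CPM in unstimulated knockout-labelled cells, against 3.97 and 4.09 CPM in unstimulated WT cells. That is 595 and 510 counts against 67 and 66, a 7.73-fold difference (log2 2.95, SE 0.197, edgeR adjusted p = 0.000502), with the 3rd smallest p of all genes tested. B cell markers summed to 6.31 and 6.55 CPM in these knockout-labelled libraries and to 7.11 and 9.30 CPM in the WT ones. Their part in the Cxcr5 difference was not tested. Bcl9l, its neighbour on the other strand, was at 74.9 and 56.9 CPM against 27.0 and 42.5 CPM.

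Cxcr4 had 247 and 186 CPM against 114 and 83.5 CPM in WT cells (log2 1.24, SE 0.211, edgeR adjusted p = 0.00791). Ccrl2 had 38.1 and 28.1 CPM against 18.1 and 12.3 CPM (log2 1.22, SE 0.242, edgeR adjusted p = 0.0137). For both, each knockout-labelled library exceeded each WT library, and mature DC genes likewise summed to 19989 and 17893 CPM in the knockout-labelled and to 13329 and 11364 CPM in the WT libraries. Cxcr3 had 0.863 and 1.47 CPM against 3.55 and 4.47 CPM, 16 and 29 counts against 60 and 72 (log2 -1.67, SE 0.423, edgeR adjusted p = 0.0292). T cell markers summed to 16.8 and 29.0 CPM in these knockout-labelled and to 38.0 and 49.2 CPM in the WT libraries. Unlike the sum, their median log2 fold change was positive, at 0.33, and 0 of the 7 tested were called. Their part in the Cxcr3 difference was not tested. Without knockout-labelled replicate 1, Cxcr4, Ccrl2 and Cxcr3 each missed the threshold (adjusted p = 0.057, 0.0999 and 0.213), and Cxcr5 alone remained. Without WT replicate 2 the Ccrl2 and Cxcr3 calls were lost (adjusted p = 0.0685 and 0.133), and without WT replicate 1 that of Cxcr3 (adjusted p = 0.0535).

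Ccr2 had 92.7 and 133 CPM in unstimulated knockout-labelled cells, against 201 and 426 CPM in unstimulated WT cells, and its log2 fold change of -1.37 (95% interval -2.45 to -0.28) did not pass (edgeR adjusted p = 0.0826). Ccr1, at 111 and 134 CPM against 157 and 162 CPM, and Cxcr2, at 0.863 and 0.660 CPM against 1.48 and 2.11 CPM, were likewise lower in both knockout-labelled libraries without passing (edgeR adjusted p = 0.132 and 0.112). Neutrophil markers summed to 87.9 and 97.8 CPM in the knockout-labelled and to 117 and 188 CPM in the WT libraries, with 4 of 8 called lower, and their part in the Ccr1 and Cxcr2 values was not tested. Ccr6 and Cx3cr1 overlapped between the labels.

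With LPS in both arms, 0 of the 9 receptors passed between knockout-labelled and WT BMDCs with edgeR, where 0% of all genes were called. At an unadjusted p under 0.05 there were 2 receptors and 1330 genes, DESeq2 called the same 2 receptors among 150 genes, and limma-voom called 0. The groups did not overlap for 5 receptors, against 46.0% of all genes. The 2 with an unadjusted p under 0.05 were Cxcr5 and Ccr6. Cxcr5 had 55.6 and 40.7 CPM in knockout-labelled LPS libraries, against 22.5 and 22.4 CPM in WT LPS libraries (log2 1.07, 95% interval 0.69 to 1.46, edgeR adjusted p = 0.166). Ccr6 had 16.4 and 11.4 CPM against 5.60 and 4.67 CPM (log2 1.41, 95% interval 0.87 to 1.95, edgeR adjusted p = 0.166). In both cases the groups were apart, and with knockout-labelled LPS replicate 2 left out both passed (adjusted p = 0.0307 and 0.0471). For the other 7 receptors the log2 fold changes lay between 0.09 (Ccr1) and 0.60 (Cxcr2), with adjusted p of 0.618 or more. The median over the 9 was 0.39, against -0.01 over all genes.

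Set in order over the 4 BMDC groups, Cxcr5 was highest in knockout-labelled LPS cells, then in knockout-labelled unstimulated, WT LPS and WT unstimulated cells, and neighbours in that order did not overlap. Ccr6 had a different order, knockout-labelled LPS, knockout-labelled unstimulated, WT unstimulated and WT LPS, in which the middle pair overlapped. For Cxcr4 and Ccrl2, knockout-labelled LPS cells were highest and unstimulated WT cells lowest, both clear of the rest, and unstimulated knockout-labelled and WT LPS cells overlapped between them. Cx3cr1 overlapped between all neighbours. Ccr1, Ccr2 and Cxcr3 shared the order unstimulated WT, unstimulated knockout-labelled, knockout-labelled LPS and WT LPS, and for all 3 the LPS groups overlapped. Cxcr2 was highest in unstimulated WT cells, which overlapped knockout-labelled LPS cells, and lower in WT LPS and unstimulated knockout-labelled cells, which overlapped each other. The 4 tumoral libraries lay above all 8 BMDC libraries for Ccrl2, Cx3cr1 and Cxcr3 and below all of them for Ccr6, and were interleaved with them for the other receptors. Monocyte and macrophage markers summed to 7740 to 16579 CPM in tumoral and 836 to 2433 CPM in BMDC libraries. T cell markers summed to 76.7 to 654 against 16.3 to 49.2 CPM, and NK markers to 28.9 to 404 against 1.72 to 3.41 CPM. The part of these cells in the receptor levels was not tested.

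In tumoral DCs, 0 of the 9 receptors passed between late and early tumors with edgeR, where 0.0230% of all 13040 genes were called, 3 lower and 0 higher (21 lower and 7 higher with scaling by library size alone). At an unadjusted p under 0.05 there were 2 receptors, Ccr2 and Cx3cr1, and 1438 genes. DESeq2 called 0 receptors among 311 genes and limma-voom called 0 genes. For 4 receptors the groups did not overlap, against 42.1% of all genes. The early libraries differed from each other: the mature DC genes summed to 1909 and 1748 CPM in the late libraries and to 894 and 2667 CPM in early replicates 1 and 2. The median log2 fold change of the receptors was 0.45, against 0.01 over all genes.

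Ccr2 was at 282 and 247 CPM in late tumoral DCs, against 438 and 580.5 CPM in early ones. Both late libraries were lower, and its log2 fold change was -0.86 (95% interval -1.46 to -0.26, edgeR adjusted p = 0.303). It passed with early replicate 1 left out, at -1.12 (adjusted p = 0.00208), and with no filter on low counts (adjusted p = 0.0175). The 10 monocyte and macrophage markers, such as Csf1r and C1qa, summed to 15005 and 16579 CPM in late and to 15038 and 7740 CPM in early libraries, none of them at 0 in any library, and had a median log2 fold change of 0.41 with none called. Among them Ly6c2, singled out after its values were seen, was lower in late tumors like Ccr2, at 78.5 and 43.2 CPM against 152 and 162 CPM. All other markers of this list had positive log2 fold changes, from 0.18 (Adgre1) to 0.85 (Apoe). The 9 T cell markers summed to 128 and 76.7 CPM in late and 654 and 383 CPM in early libraries, and the 6 NK markers to 86.6 and 28.9 CPM in late and 404 and 275 CPM in early libraries. No T cell or NK marker was at 0 in any tumoral library, and the part of these cells in the Ccr2 and Cxcr3 values was not tested. Cxcr3 was at 8.52 and 13.4 CPM in late and 16.5 and 12.7 CPM in early libraries, and the groups overlapped (log2 -0.29, edgeR adjusted p = 0.78).

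Cx3cr1 was at 74.9 and 78.8 CPM in late tumoral DCs, against 64.3 and 47.3 CPM in early ones. The late libraries were the higher pair, with a log2 fold change of 0.58 (95% interval 0.07 to 1.08, edgeR adjusted p = 0.4). Early replicate 2 was the lowest library for the summed monocyte and macrophage markers and for Cx3cr1. Cxcr4 was at 324 and 271 CPM in late and 191 and 268 CPM in early libraries (log2 0.46, edgeR adjusted p = 0.573).

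Cxcr5, Ccr1 and Ccrl2 were carried by the difference between the early replicates. Cxcr5 was at 6.63 and 3.82 CPM in late libraries and at 0.985 and 9.17 CPM in early replicates 1 and 2. Ccr1 was at 272 and 184 CPM in late and 100.1 and 246 CPM in early libraries, and Ccrl2 at 492 and 402 CPM in late and 179 and 528 CPM in early libraries. For all 3, early replicate 1 was the lowest of the 4 libraries, as it was for the mature DC genes. Without early replicate 2 these 3 receptors passed as higher in late tumors, by 2.60, 1.39 and 1.53 on the log2 scale (edgeR adjusted p = 0.0154, 0.000254 and 4.7e-05), and without early replicate 1 each was negative, at -0.81, -0.11 and -0.23. No direction can therefore be given for them.

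Ccr6, on counts of 12 to 36 per library, was at 2.27 and 1.91 CPM in late and 0.622 and 1.68 CPM in early libraries (edgeR adjusted p = 0.683). Cxcr2 was decided by 1 library: it was at 14.0 CPM in late replicate 1 and 0.848 CPM in late replicate 2, against 2.02 and 4.06 CPM in the early libraries. The 10 neutrophil markers summed to 327 and 88.1 CPM in the late and 141 and 149 CPM in the early libraries, with S100a8 at 54.5 CPM and S100a9 at 91.3 CPM in late replicate 1 and both at 4.17 CPM in late replicate 2. Ly6g was at 0 in the other 3 tumoral libraries and at 0.442 CPM in late replicate 1, and the part of neutrophils in the Cxcr2 values was not tested. The log2 fold change of Cxcr2 was 1.32 (SE 1.21, edgeR adjusted p = 0.721), and -1.73 without late replicate 1.

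**Figure D3:**
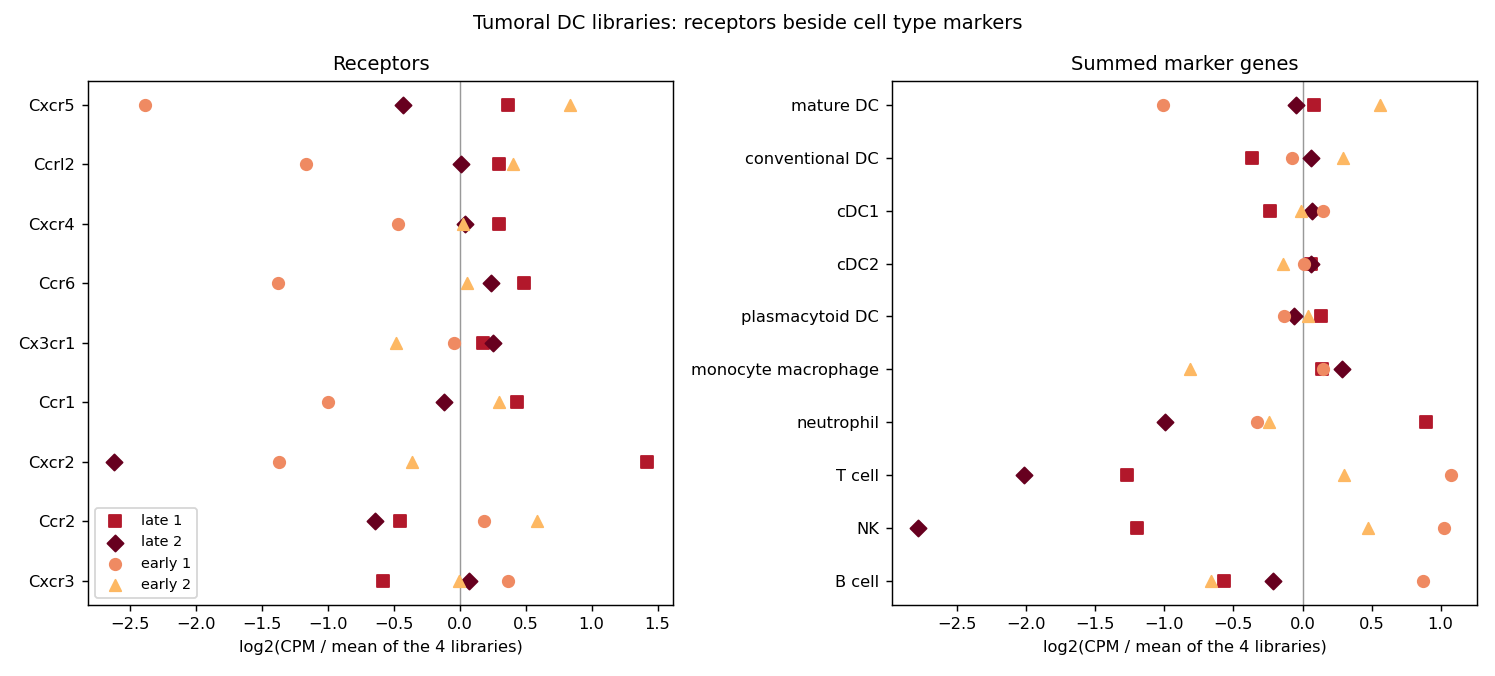
Receptors (left) and summed cell type markers (right) in the 4 tumoral DC libraries, as log2 of the CPM over the mean of the 4 libraries. Early replicate 1 was lowest for Cxcr5, Ccrl2, Ccr1 and the mature DC markers, and late replicate 1 was highest for Cxcr2 and the neutrophil markers.

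The chemokines that the receptors bind were examined beside them. Of 24 listed ligands, 17 were tested in the BMDCs. With LPS in WT cells 6 rose and 3 fell (median log2 fold change 0.22), and without stimulation 3 were higher and 0 lower in the knockout-labelled libraries (median -0.004). The shares of all genes called were 37.6% and 18.0%, and 3 of 17 ligands is near the second. The 3 interferon-induced ligands of Cxcr3 were higher with LPS in WT cells, where their receptor was lower. Cxcl10 had 1843 and 1172 counts with LPS, against 43 and 107 counts without stimulation (log2 4.43, SE 0.466, edgeR adjusted p = 0.000891). Cxcl9 had 50 and 73 counts against 3 and 6 (edgeR adjusted p = 0.00268), and Cxcl11 had 17 and 17 counts against 0 and 1 (edgeR adjusted p = 0.00581). Unstimulated knockout-labelled cells likewise held more Cxcl10 and Cxcl9 than unstimulated WT cells, with 871 and 604 counts of Cxcl10 against 43 and 107, and 95 and 44 counts of Cxcl9 against 3 and 6 (edgeR adjusted p = 0.00616 and 0.00641). The interactions of Cxcl10 and Cxcl9, -3.66 and -3.62, passed as well (edgeR adjusted p = 0.0241 and 0.0431).

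The ligands of Ccr1 did not move one way. Ccl5 was at 1327 and 1389 CPM with LPS, against 624 and 553 CPM in unstimulated WT cells (log2 1.41, SE 0.159, edgeR adjusted p = 0.00053), whereas Ccl6 and Ccl9 fell by 1.02 and 1.17 on the log2 scale (edgeR adjusted p = 0.0371 and 0.0435). Ccl2 and Ccl7, which bind Ccr2, had at most 63 and 15 counts in any BMDC library, and neither passed for LPS in WT cells. Cx3cl1, the ligand of Cx3cr1, rose by 0.54 on the log2 scale (edgeR adjusted p = 0.00209), to 219 and 213 CPM with LPS, against 164 and 178 CPM without. Cxcl13, the ligand of Cxcr5, had 0 counts in all 8 BMDC libraries, which allows up to 3 counts in each, and Ccl20, the ligand of Ccr6, at most 1 count. Cxcl12 and Rarres2, which encodes chemerin, had at most 9 and 5 counts.

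**Figure D4:**
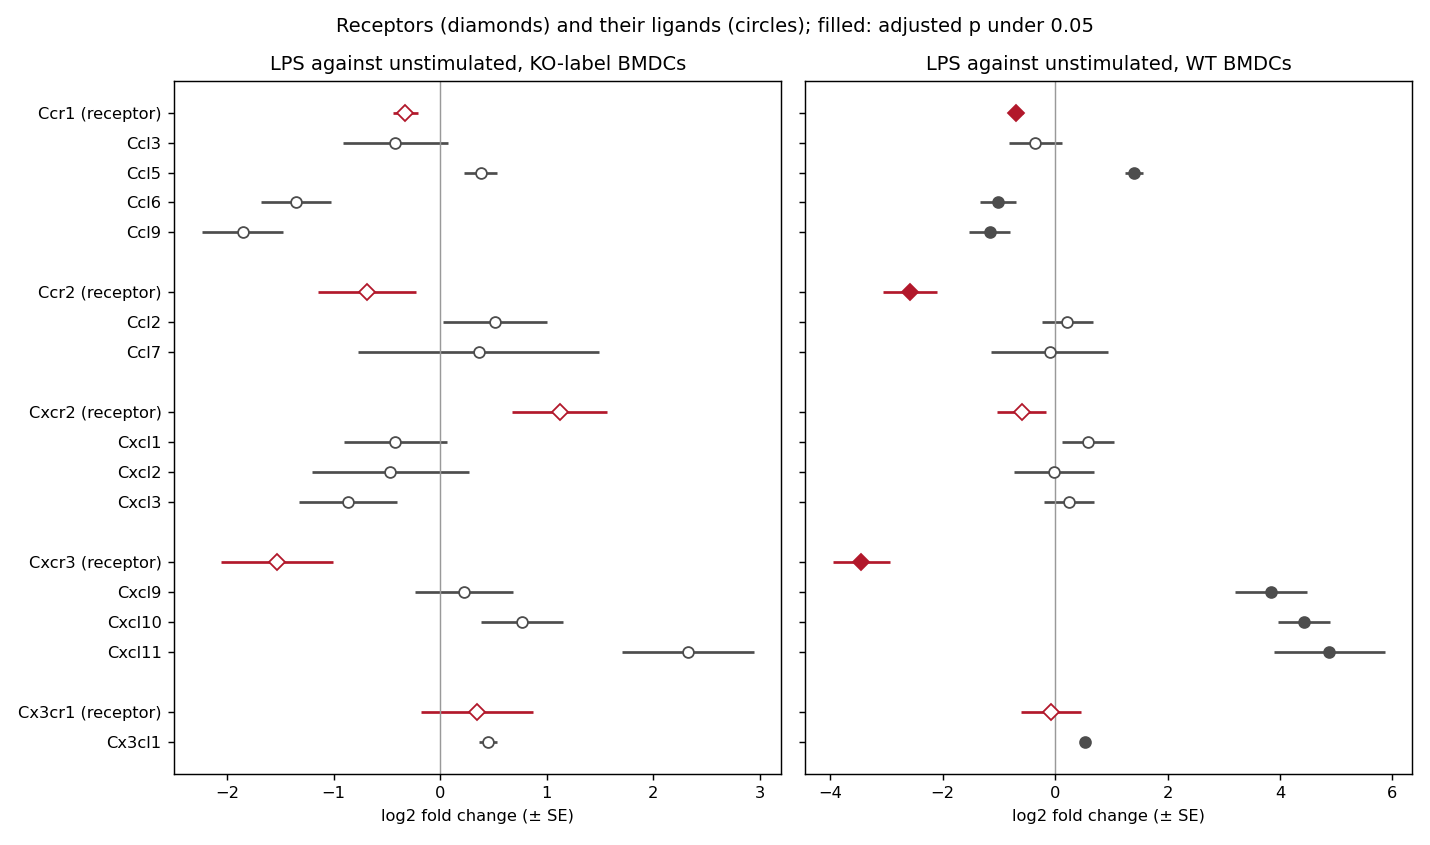
Log2 fold changes (± SE) for LPS against no stimulation of 5 receptors (diamonds) and their ligands tested in BMDCs (circles), in knockout-labelled and WT cells, filled where the edgeR adjusted p was under 0.05. In WT cells Cxcr3 lay at -3.45 and its ligands Cxcl9 and Cxcl10 at 3.85 and 4.43, and in knockout-labelled cells nothing was filled.

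In the tumoral DCs 23 of 24 ligands were tested and none passed between the stages (median log2 fold change 0.38), where 0.0230% of all genes were called. The ligands of Ccr2 were abundant there: Ccl2 was at 549 and 536 CPM in late and 298 and 457 CPM in early libraries, and Ccl7 at 430.4 and 406 CPM in late and 238 and 376 CPM in early libraries. Both were higher in the late libraries, while Ccr2 was lower, and neither ligand passed (edgeR adjusted p = 0.5 and 0.561). Pf4, a platelet and macrophage chemokine, had a log2 fold change of 1.81 (edgeR adjusted p = 0.0565).

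Other chemokine receptors were counted from a list of 17, of which 8 were tested in the BMDCs. With LPS in WT cells 3 rose and 1 fell: Ccr7, the receptor that brings mature DCs to lymph nodes (log2 1.24), Cmklr1, the signalling receptor for chemerin (2.14), and Ccr4 (1.86) rose, and Xcr1, a marker of type 1 conventional DCs, fell by 2.02 (edgeR adjusted p = 0.00111, 0.0245, 0.035 and 0.00582). Without stimulation 3 were higher in knockout-labelled cells, among them Ccr7 and Cmklr1, and Xcr1 was lower (log2 0.75, 2.55 and -2.05, edgeR adjusted p = 0.0189, 0.0257 and 0.0116). The median over these receptors was -0.25 with LPS in WT cells and 0.12 for the label without stimulation, where 37.6% and 18.0% of all genes were called, and a count of 4 of 8 tells little against such shares. In tumoral DCs 0 of 10 tested passed, where 0.0230% of all genes were called. For LPS in knockout-labelled cells, and for the label with LPS, no other receptor, ligand or signalling gene passed with edgeR. In both comparisons 0% of all genes were called.

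A list of 26 signalling genes held carriers of the signal of these receptors, brakes on it, and the proteases Adam10 and Adam17. Of these, 25 were tested in the BMDCs. With LPS in WT cells 8 rose and 7 fell (median log2 fold change -0.14), beside the 37.6% of all genes called. Prex1, which activates Rac downstream of G protein beta-gamma, and Pik3r6 and Pik3r5, the adaptors of phosphoinositide 3-kinase gamma, rose by 1.23, 1.38 and 1.11 on the log2 scale (edgeR adjusted p = 0.000707, 0.00143 and 0.00168). The G protein gamma subunit Gng2 fell by 1.90, Rgs18, a brake on G proteins, by 2.42, and the protease Adam10 by 0.43 (edgeR adjusted p = 0.000282, 0.00272 and 0.0049). Pik3cg, the catalytic subunit of phosphoinositide 3-kinase gamma, fell as well, by 0.82 (edgeR adjusted p = 0.00648). So did Elmo1 and Rac2, by 0.43 and 0.39 (edgeR adjusted p = 0.00883 and 0.0221), so this pathway did not move one way. Between the labels without stimulation 4 were higher, among them Prex1 (log2 0.97) and Pik3r6 (1.31), and 4 lower, among them Gng2 (-1.14) and Adam10 (-0.59), with edgeR adjusted p between 0.00324 and 0.00447, beside 18.0% of all genes called. Elmo1 and Dock2 were also among the lower ones (log2 -0.51 and -0.46, edgeR adjusted p = 0.00965 and 0.0204). In the interaction 1 was higher and 3 lower, beside 0.566% and 3.91% of all genes. In tumoral DCs 0 of 26 passed, where 0.0230% of all genes were called.

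To show which genes followed each receptor most closely, log2 CPM values centred on each gene's mean were compared over the 8 BMDC libraries, among 9746 genes, by their root mean square (RMS) difference. This is a description with no test, over libraries that share 4 groups. Cxcr4 and Ccrl2 were near each other, at an RMS difference of 0.108 log2 units, which made Ccrl2 the 3rd nearest gene to Cxcr4 and Cxcr4 the nearest to Ccrl2. Nearest to Cxcr5 was Tnfsf4, which encodes OX40 ligand (RMS difference 0.205), at 136 and 105 CPM in knockout-labelled LPS, 76.1 and 63.3 CPM in WT LPS, 73.5 and 54.1 CPM in unstimulated knockout-labelled and 9.83 and 9.18 CPM in unstimulated WT libraries. The gene nearest to Ccr2 was Rgs18 (0.191), that nearest to Cxcr3 was Il16 (0.192) and that nearest to Cx3cr1 was Ly6c2 (0.262). Ccr1 and Ccr6 had their nearest genes in Acox3 (0.0563) and Abhd18 (0.0703), and the low-count Cxcr2 in Plekha6 (0.287).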

How the data were processed

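RNA-seq counts of 12 libraries were used. Per the labels' protocols, total RNA went into an Illumina TruSeq library kit. The extraction text speaks of another tissue, so extraction is not described here. The authors deposited unnormalised whole-number counts for each gene symbol, in a tumoral and a BMDC table. The submitters' processing notes list the build mm10 and the tools featureCounts 2.0.1, HISAT2 2.2.1 and fastp 0.12.4, with no order. For the annotation, the strand setting and multi-mapped reads, nothing is given in the sources used here.

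All columns were mapped to samples by name (0 left unmapped). Each table was fitted on its own in R 4.3.3 with edgeR 4.0.16: filterByExpr at its defaults (minimum count 10), TMM scaling, robust glmQLFit with 1 mean per group, glmQLFTest, and Benjamini-Hochberg adjustment over all 13040 tumoral or 13072 BMDC genes. The SE was the log2 fold change over the root of F, and 95% intervals used the t quantile of the fit. DESeq2 1.42.0, limma-voom (limma 3.58.1), other scalings, filters, a replicate block, 2-group fits and leaving out each library were alternatives. The fits were tested on simulated counts. Levels per kb used GENCODE exon lengths, where exons of all transcripts are merged. Positions and promoters are from RefSeq GRCm38.p6. Protein sequences were not analysed here.

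The receptors, the gene lists and the rules for naming genes were chosen with earlier results of these data known. All 9 receptors were named, with at most 3 called genes per list, direction and comparison, their ligands, Ccr7, Xcr1 and neighbouring genes. Pik3cg, Elmo1, Rac2 and Dock2 were named beyond that rule, after their values were seen. Some genes of the lists are not reported here by name. The marker genes beside results and Pf4, which did not pass, were picked after their values were seen. Likeness used log2 CPM (prior count 2) of genes with an average of at least 2, leaving out predicted genes.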

Additional observations from a re-analysis of the deposited data

Results flagged for a closer look

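On the log2 scale, the LPS effect on Cxcr5 differed between the genotype labels by the test of the difference itself. Its log2 fold change was 0.80 in knockout-labelled and 2.68 in WT BMDCs, an interaction of -1.88 (SE 0.258, edgeR adjusted p = 0.00978). Unstimulated knockout-labelled cells, at 32.1 and 25.9 CPM, were already above WT cells with LPS, at 22.5 and 22.4 CPM. Mean levels went with LPS from 4.03 to 22.5 CPM in WT and from 29.0 to 48.1 CPM in knockout-labelled cells. Whether these rises in CPM differed was not tested. The Pde5a counts do not separate the labels, and what underlies the difference was not tested.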

How the results depend on the processing

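The 6 receptor calls for LPS in WT BMDCs were kept in number under every alternative, and no receptor changed sign with DESeq2 size factors or library size alone. The labels do not say that replicate numbers pair the samples, and not every pair of groups correlated: deviations of same-numbered libraries correlated at -0.0379 in the tumoral and between -0.2 and 0.275 in the BMDC groups. Where counts moved, the cause was not tested.

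Between late and early tumors (3 genes, 0 receptors), the genes called were 0 with DESeq2 size factors, 28 with library size alone, 689 with no filter, 311 with DESeq2, 0 with limma-voom, 173 with the replicate block and 0 to 1063 with 1 library left out. Receptors called were 1 with no filter (Ccr2) and 0 to 3 with 1 library left out. For LPS in knockout-labelled cells (0 and 0), genes were 22 with DESeq2 size factors, 24 with library size alone, 587 with no filter, 793 with DESeq2, 321 with the replicate block and 0 to 615 with 1 library left out. Receptors were 1 with no filter, 1 with DESeq2, 2 with the replicate block (Cxcr5 and Ccrl2, adjusted p = 0.0391 and 0.0438) and 0 to 1 with 1 library left out. For the label with LPS (0 and 0), genes were 56 with no filter, 150 with DESeq2, 2 with the replicate block and 0 to 65 with 1 library left out, and receptors 2 with no filter, 2 with DESeq2 and 0 to 2 with 1 library left out. For the interaction (585 and 1), genes were 948 with no filter, 1075 with DESeq2 and 58 to 1076 with 1 library left out, and receptors 2 with DESeq2 (Cxcr4 added) and 3 with the replicate block (Cxcr4 and Ccrl2 added). For LPS in WT cells (4910), 2676 to 4100 genes were called with 1 library left out. For the label without stimulation (2357 and 4), genes were 993 with the 2 groups alone and 593 to 2717 with 1 library left out, receptors 1 to 4, and Cxcr3 missed the threshold with the 2 groups alone (adjusted p = 0.0515).

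Signs turned for some uncalled receptors. Cx3cr1 was 0.0557 for LPS in WT cells and 0.16 for the label without stimulation with limma-voom, and 0.0378 for that label contrast with the replicate block. With 1 library left out, Cx3cr1 ranged from -0.64 to 0.88 for LPS in WT cells, -0.10 to 0.68 for LPS in knockout-labelled cells, -0.60 to 0.92 for the label without stimulation, -0.0541 to 0.87 for the label with LPS and -0.53 to 0.99 in the interaction. For the label with LPS, Cxcr3 ranged from -0.40 to 0.72 and Ccr1 from -0.0458 to 0.23. For late against early tumors, Cxcr5 ranged from -0.81 to 2.60, Ccr1 from -0.11 to 1.39, Ccrl2 from -0.23 to 1.53, Cxcr3 from -0.71 to 0.0200 and Cxcr2 from -1.73 to 2.23. Where 1 library was left alone in a group, it was assumed to vary like the others. Receptors with low counts (Cxcr2, Cxcr3 with LPS, Ccr6 in tumors) are limited by depth.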
